A study of Mus musculus and Homo sapiens with 180 samples.

Results

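The data described here are 6 libraries of MOLM13 cells in which BCOR had been targeted by CRISPR–Cas9 (BCOR KO): 3 were given the DOT1L inhibitor SGC0946 at 5 µM for 72 h and 3 were given the solvent DMSO, also labelled 72 h. They were chosen by their column names in the count table of the MOLM13 experiment, and are 6 of the 27 libraries in that table and of the 180 samples in the series. MOLM13 is a human acute myeloid leukaemia line that carries the MLL–AF9 fusion. The series profiles leukaemia lines by 3′ RNA-seq, which counts reads near the 3′ ends of transcripts, to ask whether the polycomb complex PRC1.1 is needed for the transcriptional response to DOT1L and Menin inhibitors. The comparison groups used below are 3 control libraries in SGC0946 (5 µM, 72 h), 3 control libraries in DMSO (72 h), 3 PCGF1 KO libraries under each of the same conditions, and 3 BCOR KO libraries in the Menin inhibitor VTP50469 (500 nM, 48 h). The organism label of these samples reads Mus musculus, but MOLM13 is a human line and the table holds human Ensembl genes. All of these cells carry Cas9 and a guide vector. The study's methods describe a control guide to a site of no annotated function, its figure legends call the control guide non-silencing, and the control columns are tagged NT. Per the study's methods the edited cells are mixed populations and not single clones, so cells with an intact BCOR copy can remain in the BCOR KO libraries.

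MLL fusion proteins bind genes such as HOXA9 and MEIS1 and recruit elongation factors and DOT1L, the methyltransferase that places H3K79 methylation over transcribed genes. DOT1L inhibitors remove this mark, the fusion's target genes lose expression, and leukaemia cells then turn on genes of maturing monocytes and granulocytes. BCOR is the scaffold subunit of PRC1.1, a variant polycomb complex that contains PCGF1 and KDM2B and adds ubiquitin to histone H2A at CpG-rich promoters, a mark associated with gene repression.

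The study lists 2 guides against human BCOR, shown here because they define the perturbation. Both match the coding part of exon 4 of the 15 exons of BCOR (GENCODE v44, GRCh38, minus strand of the X chromosome). Guide 1 lies at chrX:40074757-40074774 on the minus strand and guide 2 at chrX:40074498-40074515 on the plus strand. The guide is printed in lower case and the adjacent NGG motif, read from the genome, in capitals. The column names carry the tag G2, and the sources used here do not spell out that this is guide 2.
BCOR guide 1: gggtcaatccttacatggAGG
BCOR guide 2: gcgcaatggacgagaggcGGG

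BCOR itself was not lower in the BCOR KO libraries. Levels are given as CPM, the count of a gene relative to the total of its library after scaling by edgeR's TMM factors. BCOR measured 97.9, 111 and 106 CPM in BCOR KO cells in DMSO and 94.2, 93.4 and 97.1 CPM in SGC0946, whereas the control cells held 55.3, 45.3 and 56.03 CPM in DMSO and 36.6, 44.2 and 38.7 CPM in SGC0946. Under SGC0946 BCOR was higher in BCOR KO than in control cells by 1.25 ± 0.09 on the log2 scale (SE; edgeR's quasi-likelihood test, Benjamini–Hochberg adjusted p = 9.82e-11), with no overlap between the libraries. A 3′ count is taken far from exon 4 and does not read the edit, so these values do not check the labels. Within BCOR KO cells BCOR differed between treatments by -0.15 on the log2 scale and did not pass the test (adjusted p = 0.44), and PCGF1, the partner subunit, was low in every BCOR KO library, at 5.41 to 9.32 CPM.

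The 6 BCOR KO libraries held 4864828 to 5921745 counts assigned to genes, and a floor of 3 counts corresponds to 0.494 to 0.625 CPM. Of 63152 genes in the table, 12140 reached 2 CPM in at least 2 of the 27 libraries and were tested. Myeloid genes were found at very different levels in BCOR KO cells in DMSO. ELANE, PRTN3 and RNASE2, granule proteins of myeloid progenitors, averaged 893.8, 579.2 and 673.9 CPM, and the myeloid receptor CD33 averaged 53.9 CPM. Low means were held by LYZ (0.999 CPM), ITGAM (2.3 CPM) and MPO (10.2 CPM). The myeloid genes CD68, FCN1, CD163, MRC1 and CEBPA were listed at 0 in all 6 libraries. Of the markers of other lineages, 11 of 13 erythroid, 4 of 8 megakaryocyte and 2 of 8 B cell genes, the globins, PF4 and EBF1 among them, were listed at 0 in all 6 libraries. Others were detected, with means of 10 CPM in DMSO and 12.9 CPM in SGC0946 for NKG7, 4.58 and 6.02 CPM for CD3D, 4.22 and 5.18 CPM for EPOR and 3.49 and 3.02 CPM for PAX5. The summed level of the whole erythroid list was 3.07 to 5.93 CPM in DMSO and 3.55 to 6.84 CPM in SGC0946, and that of the T and NK cell list was 15.5 to 16.6 CPM in DMSO and 18 to 22.5 CPM in SGC0946. A value of 0 is not read as absence in this table, because BOP1 and CYP51A1, which most dividing cells use, were also listed at 0. One control library in DMSO, replicate 2, stood apart from its partners (chi-square per degree of freedom of 23.2 and 26.4 against them, with 3.99 to 5.97 for every other pair of libraries of a group in control and BCOR KO cells). The comparisons with control cells below rest on it in part, and so does the estimate of spread in every test, which is shared by all 27 libraries.

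SGC0946 changed the expression of 534 genes (4.4% of those tested) in BCOR KO cells at an adjusted p under 0.05: 343 rose (2.83%) and 191 fell (1.57%). The raised genes included the phagocyte oxidase subunit CYBB and myeloperoxidase (MPO), and the lowered genes included the transcription factors MEIS1 and MEF2C. Among called genes the changes were larger in the raised ones, with a median of 0.75 on the log2 scale against -0.52 for the lowered genes. Of the called genes, 109 of the raised but 33 of the lowered ones changed beyond 2-fold. These figures are a description, since they cover called genes only and the filter on low counts admits genes high in treated libraries alone. The largest rise, that of SERPINB10 (4.23), started from 2 counts over the 3 DMSO libraries. The 6 libraries did not overlap between treatments for 338 of the 343 raised and for all 191 lowered genes, where 12.4% and 10.4% of all tested genes separate in these directions. When scaled by library size alone 270 genes rose and 232 fell, so the share of raised genes among the calls went from 64.2% to 53.8%. With the limits of the study's methods (adjusted p under 0.1 and a log2 change beyond 0.5) 335 genes rose (2.76%) and 125 fell (1.03%). Leaving out 1 BCOR KO library lowered the number of calls to 285, 367 and 314 without DMSO replicates 1, 2 and 3. It was 355, 353 and 306 without SGC0946 replicates 1, 2 and 3. Without control DMSO replicate 2, a library chosen after seeing the data, 713 genes were called, the model using 1 estimate of spread for all 27 libraries. In bulk RNA, fewer cells that express a gene and less RNA per cell cannot be told apart.

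The genes that rose and the genes that fell differed in promoter base composition, as a description. Windows of 300 bases, from 250 before to 50 after the start of the canonical transcript, were read from GRCh38 and the dinucleotide CG was counted, which reads the same on both strands. Promoters with fewer than 5 CGs made up 21.2% of the raised genes with a window (72 of 339), 3.21% of the lowered genes (6 of 187) and 7.08% of all tested genes. Among the genes raised beyond 2-fold the share was 37.7%. For the genes lowered beyond 2-fold it was 6.67% (2 of 30), near that of all tested genes. Single genes went both ways: the raised SORL1 held 52 CGs and CES1 held 8, and the lowered LINC00461 and ANGPT1 held 6 each. The median count was 21 for raised, 29 for lowered and 27 for all tested genes. In control cells the share under 5 CGs was 13.9% for raised and 3.49% for lowered genes. The sequences below belong to CYBB, among the most raised genes, and to the 2 most lowered genes of the naming rule, with each CG in capitals. The CYBB window with 1 CG and the EFNA5 window with 47 lie far from these medians.
CYBB (chrX:37779809-37780108, plus strand): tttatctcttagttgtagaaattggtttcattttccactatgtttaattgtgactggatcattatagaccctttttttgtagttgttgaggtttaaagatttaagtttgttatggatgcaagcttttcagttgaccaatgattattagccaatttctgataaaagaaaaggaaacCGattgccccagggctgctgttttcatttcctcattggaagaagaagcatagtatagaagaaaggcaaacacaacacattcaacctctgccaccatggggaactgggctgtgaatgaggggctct
MIR1915HG (chr10:21497022-21497321, minus strand): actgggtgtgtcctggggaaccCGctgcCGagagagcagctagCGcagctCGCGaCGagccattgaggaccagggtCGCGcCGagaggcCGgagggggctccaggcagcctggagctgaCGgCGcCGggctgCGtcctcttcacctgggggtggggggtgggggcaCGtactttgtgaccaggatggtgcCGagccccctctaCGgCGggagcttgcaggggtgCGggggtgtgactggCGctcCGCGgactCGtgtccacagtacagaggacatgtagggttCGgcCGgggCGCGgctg
EFNA5 (chr5:107670888-107671187, minus strand): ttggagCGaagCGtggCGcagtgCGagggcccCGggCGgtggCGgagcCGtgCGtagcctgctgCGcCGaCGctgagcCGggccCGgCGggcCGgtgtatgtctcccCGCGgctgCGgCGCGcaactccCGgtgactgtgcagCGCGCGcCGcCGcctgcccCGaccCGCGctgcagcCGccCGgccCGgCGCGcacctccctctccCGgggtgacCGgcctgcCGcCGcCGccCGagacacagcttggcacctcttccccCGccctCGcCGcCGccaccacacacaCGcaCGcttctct

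MEIS1, the homeobox partner of HOXA9 in MLL leukaemia, measured 33.8, 26.2 and 29.4 CPM in BCOR KO cells in DMSO and 12.1, 12.7 and 8.18 CPM in SGC0946. The groups were far apart, and MEIS1 fell by 1.44 ± 0.19 on the log2 scale (SE, n = 3 libraries a group, edgeR adjusted p = 1.46e-05). MEF2C, a transcription factor of myeloid progenitors that MLL fusions sustain, fell by 1.25 ± 0.09 (adjusted p = 1.78e-10). Its libraries held 235, 233 and 209 CPM in DMSO and 93.5, 100.1 and 90.4 CPM in SGC0946. EFNA5, which encodes an ephrin ligand, fell by 1.498 ± 0.17 (adjusted p = 1.21e-06), from 47.3, 44.3 and 44.98 CPM to 12.9, 17.2 and 18.1 CPM. SATB1, a chromatin organiser, went from 209, 210 and 195 CPM to 118, 142 and 129 CPM, a log2 change of -0.66 ± 0.09 (adjusted p = 2.20e-05). In each of these 4 genes every SGC0946 library lay below every DMSO library.

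The 12 most lowered genes of the rule also held the nuclear receptor NR2F1 (log2 change -1.41), the homeobox gene SHOX2 (-1.18), the deadenylase subunit CNOT6L (-1.09), the unconventional myosin MYO6 (-1.07) and the zinc finger factor ZNF521 (-1.06). NR2F1 measured 61.6, 62.8 and 47.9 CPM in DMSO and 22.1, 20.9 and 21.7 CPM in SGC0946. The angiopoietin ANGPT1 fell from a mean of 15.01 to 5.68 CPM (log2 change -1.39), a call that was lost (adjusted p = 0.0524 to 0.126) without any one of the DMSO libraries or without SGC0946 replicate 1 or 2. ANXA2R (-1.12) and the long non-coding RNAs MIR1915HG (-1.54) and LINC00461 (-1.42) complete the 12.

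**Figure D1:**
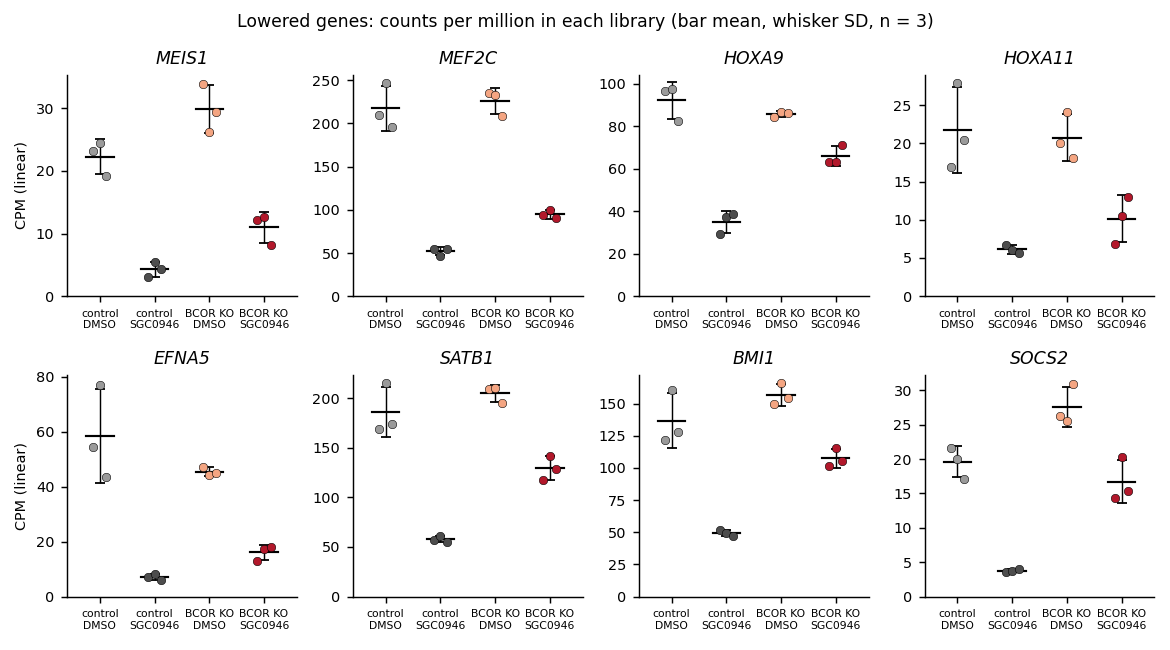
CPM on a linear axis from 0 in each library (points), with the group mean (bar) and SD (whisker, n = 3), for 8 genes lowered by SGC0946 in control and BCOR KO cells. In all 8 panels the BCOR KO libraries in SGC0946 (dark red) lie below those in DMSO and above the control libraries in SGC0946 (dark grey).

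In the list of MLL fusion targets, 33 of 37 genes were tested, 16 fell, 2 rose and the other 15 did not pass the test, with a median log2 change of -0.38 where the median of all tested genes was 0.005. The shares over all tested genes were 1.57% lowered and 2.83% raised. REEP3 (-0.76), the kinase CDK6 (-0.65), the HOX cofactor PBX3 (-0.81) and the RNA-binding protein CPEB2 (-1.39) were among those that fell, and the integrin subunit ITGB7 (1.46) and the adhesion adaptor LPXN (0.84) rose. Of the HOXA genes tested, HOXA3, HOXA9, HOXA10 and HOXA11 fell and HOXA5 and HOXA13 did not pass the test. HOXA11 measured 20.1, 24.1 and 18.1 CPM in DMSO and 6.89, 10.6 and 12.9 CPM in SGC0946 (-1.03 ± 0.20, adjusted p = 0.00166).

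HOXA9, the homeobox oncogene at the centre of the MLL programme, went from 84.4, 86.5 and 86.3 CPM to 63.3, 63.3 and 71.4 CPM. The groups did not overlap, but the change of -0.38 ± 0.11 was small (edgeR adjusted p = 0.0394) and the call was kept only without SGC0946 replicate 3, at adjusted p = 0.0378, the other omissions of a BCOR KO library giving 0.086 to 0.126. HOXA10 (-0.53, adjusted p = 0.0266) lost its call without DMSO replicate 1 or 2 or any one SGC0946 library (0.0552 to 0.146). The MLL target JMJD1C, a histone demethylase, fell by 0.80 (adjusted p = 0.0104), and lost its call without DMSO replicate 1 (0.0601) or SGC0946 replicate 3 (0.0804). EMB, which encodes the adhesion protein embigin, fell by 0.62 (adjusted p = 5.28e-05). ATF5 (-0.41), ZEB2 (-0.18) and TSC22D2 (-0.29) did not pass the test.

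CYBB measured 8.88, 7.42 and 9.57 CPM in BCOR KO cells in DMSO and 40.7, 42.4 and 39.8 CPM in SGC0946. Every treated library was thus more than 30 CPM above every untreated one, and CYBB rose by 2.25 ± 0.14 on the log2 scale (edgeR adjusted p = 1.11e-11), a fold change of 4.75. CHI3L1, a secreted chitinase-like protein of neutrophil granules, rose by 2.02 ± 0.10 (adjusted p = 7.70e-14), from 56.8, 64.1 and 58.3 CPM to 215, 249.6 and 262 CPM. MPO, the primary granule peroxidase, rose by 1.92 ± 0.13 (adjusted p = 7.08e-11), from 9.27, 8.57 and 12.8 CPM to 37.6, 38.7 and 39.6 CPM. SLPI, a secreted inhibitor of neutrophil proteases, rose by 1.503 ± 0.10 (adjusted p = 7.08e-11), and MS4A3, a marker of granulocyte–monocyte progenitors, rose by 1.53 ± 0.15 (adjusted p = 6.61e-08). SLPI held 15.3, 15.2 and 16.4 CPM in DMSO and 44.1, 43.4 and 45.5 CPM in SGC0946.

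The same 12 most raised genes held the sorting receptor SORL1 (1.69), the B cell and myeloid adaptor GAPT (1.68), the secreted adenosine deaminase ADA2 (1.60) and the ubiquitin ligase family member RNF175 (1.75). The carboxylesterase CES1 had the largest log2 change of the 12 (2.51 ± 0.50, adjusted p = 0.00224), at 3.28, 2.97 and 2.89 CPM in DMSO and 20.2, 12.7 and 19.4 CPM in SGC0946. CORO1A, a leukocyte actin regulator, rested largely on 1 library, since SGC0946 replicate 2 held 196 CPM where replicates 1 and 3 held 41.8 and 51.8 CPM. Its log2 change of 2.18 (adjusted p = 0.02) became 1.13 (adjusted p = 0.326) without that library and lost its call without any one DMSO library (0.0525 to 0.0881). RPS2P46, a processed pseudogene whose reads may belong to the parent gene RPS2, spread from 71.9 to 244 CPM in SGC0946 and passed the test narrowly (2.13, adjusted p = 0.0498). Its call was lost (0.0812 to 0.273) without any one DMSO library or without SGC0946 replicate 1 or 2.

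**Figure D2:**
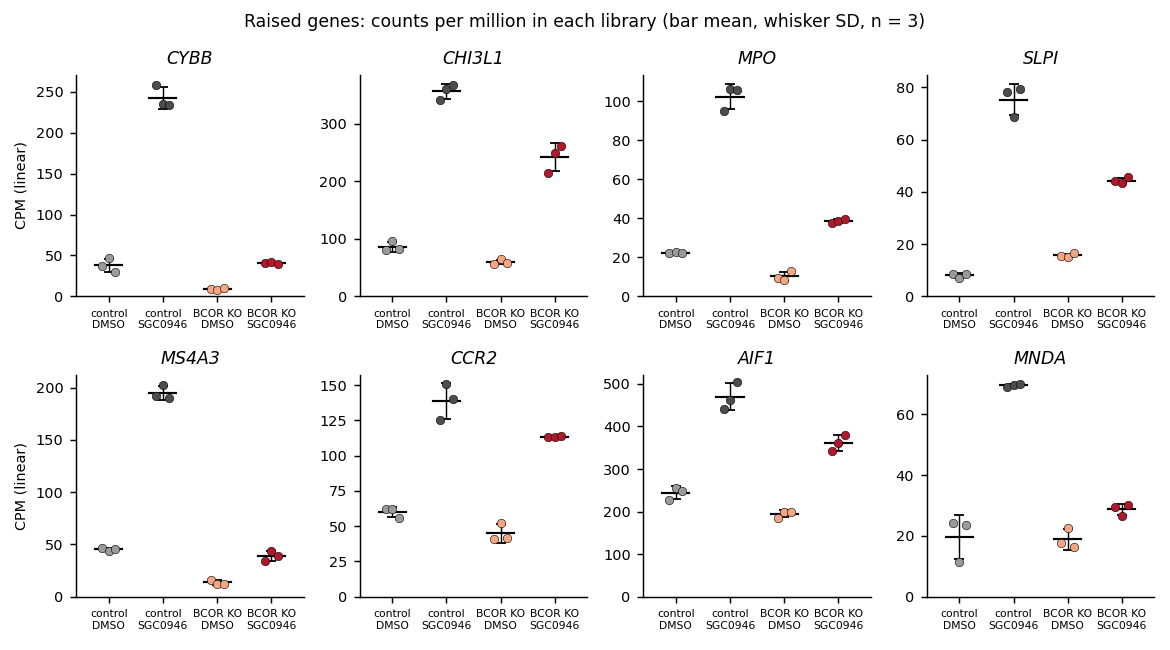
CPM on a linear axis from 0 in each library (points), with the group mean (bar) and SD (whisker, n = 3), for 8 genes raised by SGC0946. The BCOR KO libraries in SGC0946 lie above those in DMSO in every panel, and in every panel they lie below the control libraries in SGC0946.

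Some members of the monocyte, late granulocyte and primary granule lists rose, and 0 members of these lists fell, where 2.83% of all tested genes rose and 1.57% fell. Of 25 tested monocyte and macrophage genes (34 listed), 11 rose and 0 fell: the chemokine receptor CCR2 (1.33 ± 0.12, adjusted p = 1.12e-08), the actin-binding protein AIF1 (0.89 ± 0.08, adjusted p = 2.92e-08) and the macrophage growth factor receptor CSF1R (1.86 ± 0.25, adjusted p = 1.53e-05) had the smallest p after CYBB. CCR2 held 40.9, 52.4 and 41.2 CPM in DMSO and 113, 113 and 114 CPM in SGC0946. LYZ, also called as raised, averaged 0.999 CPM in DMSO and 4.72 CPM in SGC0946 (0.916 and 10.4 CPM in control cells). A gene high in treated libraries alone can pass the filter on low counts, which favours a rise in this list. ITGAM, which encodes the surface antigen CD11b, was near the limit of the counts at 1.16, 2.31 and 3.43 CPM in DMSO and 6.05, 3.32 and 4.95 CPM in SGC0946 and did not pass the test (1.03, adjusted p = 0.1), and CD14, the monocyte surface antigen, averaged 0 CPM in DMSO and 0.0652 CPM in SGC0946. The master regulators SPI1 (0.30) and IRF8 (-0.13) did not pass the test either.

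Of the 13 tested late granulocyte genes (26 listed), 7 rose and 0 fell, with a median of 0.98, where 2.83% of all tested genes rose. The filter on low counts admits a gene that is high in treated libraries alone, so these counts favour a rise. S100A8 averaged 0.695 CPM in BCOR KO and 0.168 CPM in control cells in DMSO, and 1.34 and 5.84 CPM in SGC0946. ALOX5 averaged 0.0549 and 0.303 CPM in DMSO, and 0.72 and 2.17 CPM in SGC0946. ALOX5AP, the leukotriene pathway activating protein, rose by 0.98 ± 0.15 (adjusted p = 8.21e-05), and CSF3R, the G-CSF receptor, rose by 0.56 ± 0.11 (adjusted p = 0.0016). Secondary granule genes such as LTF, LCN2 and MMP8 were listed at 0 in all 6 BCOR KO libraries. Of the 12 tested primary granule genes 4 rose and 0 fell. Beside MPO these were the ribonucleases RNASE2 (0.46) and RNASE3 (0.94) and the bactericidal protein BPI (1.60), whereas the more abundant ELANE (0.22), PRTN3 (0.27) and CTSG (0.20) did not pass the test. The stem and progenitor list had 4 tested members of 22 and 0 calls by edgeR or DESeq2 (1 at an unadjusted p under 0.05), and 15 of its genes, CD34 among them, were listed at 0.

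Among genes of metabolism and growth, the amino acid response list, which holds targets of ATF4, had 5 of 21 tested members that fell and 0 that rose, with a median of -0.34. Over all tested genes 1.57% fell and 2.83% rose, and the single call among cell division genes below is near that share. PSAT1, a serine synthesis enzyme, went from 181, 182 and 180 CPM in DMSO to 104.8, 105.0 and 104.5 CPM in SGC0946 (-0.79 ± 0.10, adjusted p = 7.62e-06), and GPT2, CHAC1, SLC3A2 and the asparagine synthetase ASNS fell by 0.59, 1.40, 0.40 and 0.40. The call of SLC3A2 (adjusted p = 0.0379) did not hold without any one of the 6 libraries. ATF4 itself (-0.19) did not pass the test. Of 28 lysosome genes 4 rose and 0 fell, the acid lipase LIPA (0.35), the peptidase TPP1 (0.40) and the galactosidase GLB1 among them. Each of these 4 calls was lost without any one of 3 or more of the 6 libraries (for LIPA without DMSO replicate 1 or 2 or SGC0946 replicate 3, at 0.0592 to 0.0848). Of 36 cell division genes 1 fell, the checkpoint kinase BUB1 (-0.52, adjusted p = 0.0334, a call lost without any one library but SGC0946 replicate 1, at 0.0733 to 0.153), and 0 rose. CDK6 and the cell cycle inhibitor CDKN1B (-0.50) were the 2 called members, both lowered, of 9 tested D cyclins and CDK inhibitors, the CDKN1B call being lost without DMSO replicate 2 or 3 or SGC0946 replicate 2 or 3 (0.0568 to 0.125).

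Calls among chromatin regulators were about as rare as among all tested genes, of which 4.4% were called, so the low counts are not particular to these lists. Of the 10 PRC1.1 subunits and of the 13 tested MLL complex genes 0 were called by edgeR or DESeq2, with 1 and 2 at an unadjusted p under 0.05. BMI1, the PCGF4 subunit of canonical PRC1, fell by 0.55 ± 0.09 (adjusted p = 0.000355), from 149.9, 166.5 and 154.8 CPM to 101.7, 115.7 and 105.2 CPM. JARID2, a PRC2 cofactor, rose by 0.37 (adjusted p = 0.0133; 0.0798 without DMSO replicate 1 and 0.132 without SGC0946 replicate 3), and AFF3, an elongation factor scaffold, rose by 0.82 (adjusted p = 0.00176). DOT1L, the target of the drug, measured 57.4 CPM in DMSO and 54.5 CPM in SGC0946 on average and did not pass the test (-0.08). Of the remaining lists, cholesterol synthesis had 0 calls by edgeR or DESeq2 among 23 tested genes (2 at an unadjusted p under 0.05), ribosome biogenesis had 1 lowered gene (NOLC1, lost without DMSO replicate 1 at 0.0513) of 21, the BCL2 family had 1 lowered gene (BCL2, -0.31) of 14, and interferon response had 1 raised gene (IFI6, 0.83) of 16. Cytokine feedback genes gave 1 raised (DUSP6, 0.63) and 1 lowered gene (SOCS2) of 17, and MHC class II genes 1 raised gene (CD74, 0.38) of 4. BCL2, IFI6 and DUSP6 each lost the call when any one of the 6 libraries was left out.

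**Figure D3:**
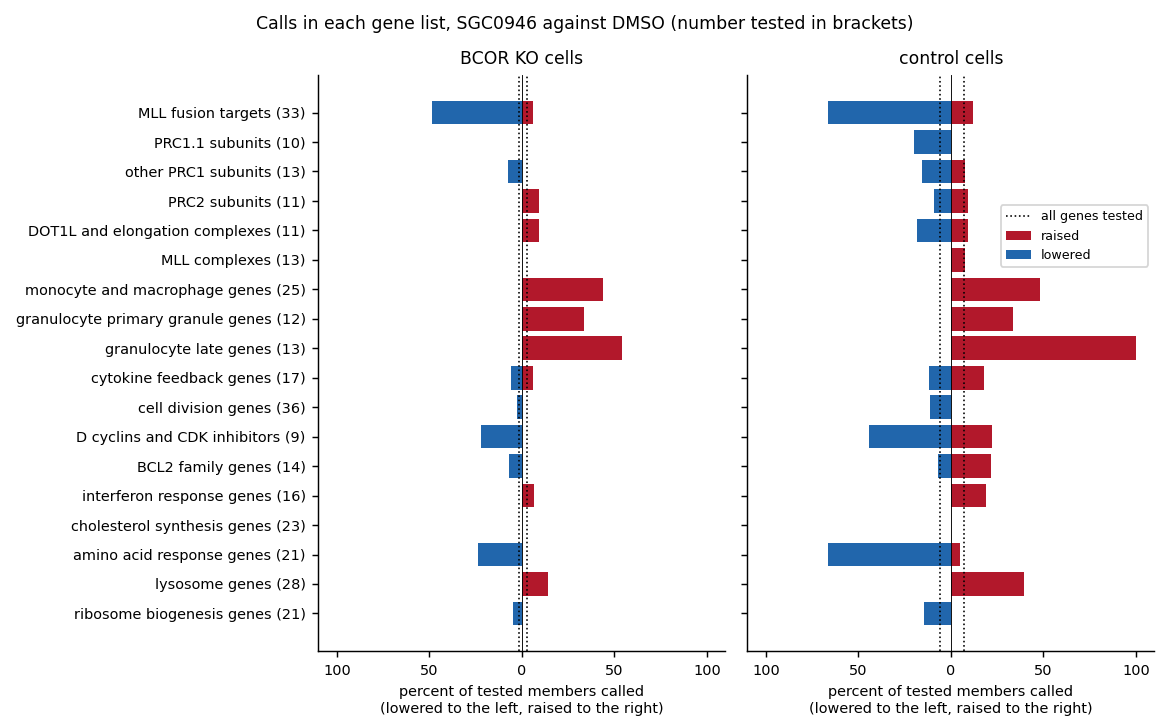
Percent of the tested members of each gene list that were called as raised (red, to the right) or lowered (blue, to the left) by SGC0946 at an adjusted p under 0.05, in BCOR KO cells (left) and control cells (right); dotted lines mark the percentages over all tested genes and numbers in brackets the genes tested. MLL fusion targets fell in both genotypes (16 and 22 of 33), and late granulocyte genes rose in 7 and 13 of 13. Genes high in treated libraries alone could pass the filter on low counts, which favours a rise in the late granulocyte and monocyte lists.

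Set beside the control cells, which share no library with the BCOR KO cells, the response went the same way in most genes. SGC0946 changed 1578 genes in control cells (13% of those tested), of which 878 rose (7.23%) and 700 fell (5.77%). With scaling by library size alone these were 724 and 927, which took the share of raised genes from 55.6% to 43.9%. Without control DMSO replicate 2 the count was 1388, it was 1044 without control SGC0946 replicate 3, and when only the 6 control libraries were fitted it was 505. Of the 343 genes raised in BCOR KO cells, 265 also rose in control cells, which is 77.3% of the first list and 30.2% of the second. Of the 191 genes lowered in BCOR KO cells, 137 also fell in control cells, which is 71.7% and 19.6% of the lists. Fitted without control DMSO replicate 2, 316 raised genes were shared (73.3% of 431 in BCOR KO and 41% of 771 in control cells) and 191 lowered genes (67.7% of 282 and 31% of 617). A single gene of each BCOR KO list was called in the opposite direction in control cells. In the raised list this was INHBA, the activin A subunit, which rose in BCOR KO and fell in control cells.

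The genes called in BCOR KO cells changed about as far in control cells, with medians of 0.75 in BCOR KO and 0.76 in control cells for the raised genes and of -0.52 and -0.50 for the lowered genes. Genes called in control cells had medians of 0.74 in control and 0.38 in BCOR KO cells when raised, and of -0.48 and -0.22 when lowered. Each list was chosen on the values of 1 genotype and so favours that genotype, and these medians are a description. The plot of both responses shows the raised genes spread on both sides of the line of equal change.

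**Figure D4:**
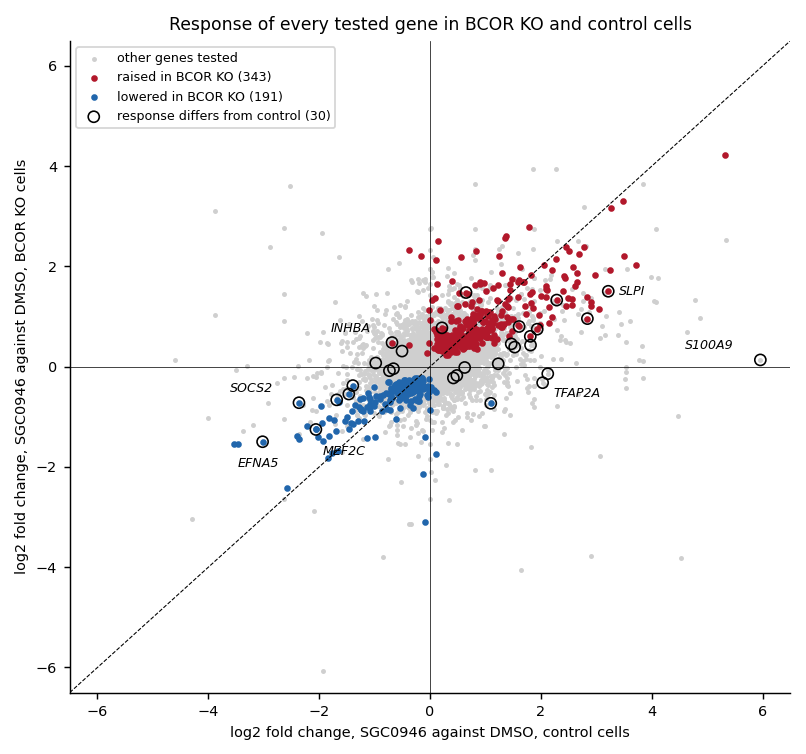
Log2 fold change of SGC0946 against DMSO for the tested genes, in control cells (x axis) and BCOR KO cells (y axis). Red and blue points are the 343 raised and 191 lowered genes of BCOR KO cells, open circles the 30 genes whose response differed, and the dashed line equal change; 2 genes lie beyond the axes.

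The difference of the 2 responses was tested in the same model. It passed at an adjusted p under 0.05 in 30 genes (0.247% of those tested), with 13 changes higher in BCOR KO cells (0.107%) and 17 lower (0.14%), in 22 genes without control DMSO replicate 2, in 16 with only the 12 libraries compared and in 139 without a filter on low counts. Among the 13, 6 genes fell in both genotypes, 4 fell in control cells and were not called in BCOR KO cells, and the others were INHBA, BASP1 and MS4A6A. Among the 17, which had all risen in control cells, 6 also rose in BCOR KO cells, 10 were not called there and 1 fell.

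SOCS2, a feedback inhibitor of cytokine signalling, showed the largest difference on the higher side. In control cells it went from 21.6, 20.1 and 17.1 CPM to 3.55, 3.76 and 4.03 CPM, and in BCOR KO cells from 26.3, 25.6 and 30.9 CPM to 14.4, 20.3 and 15.4 CPM. Both genotypes thus fell without overlap, by 2.37 and 0.72 on the log2 scale, and the change was higher in BCOR KO cells by 1.65 ± 0.26 (edgeR interaction contrast, adjusted p = 0.00155). The fall within BCOR KO cells (adjusted p = 0.00785) did not pass without DMSO replicate 3 (0.0579) or SGC0946 replicate 1 (0.0537), while the difference between genotypes passed in every alternative tried.

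HOXA9 fell from 96.6, 97.7 and 82.3 CPM to 29.2, 37.4 and 38.5 CPM in control cells, further than in BCOR KO cells by 1.02 ± 0.15 (adjusted p = 0.000881). MEF2C fell from 210, 247 and 196 CPM to 54.95, 46.4 and 54.96 CPM in control cells, and the difference was 0.81 ± 0.13 (adjusted p = 0.00155). SATB1 (1.02 ± 0.13, adjusted p = 0.000127), BMI1 (0.92 ± 0.13, adjusted p = 0.000633) and EFNA5 (1.52 ± 0.26, adjusted p = 0.003) likewise fell less in BCOR KO cells, EFNA5 losing the call when only the 12 libraries compared were fitted (0.0529). For MEIS1 the difference of 0.93 ± 0.30 did not pass the test (adjusted p = 0.376). In SGC0946 its level was higher in BCOR KO than in control cells (12.1, 12.7 and 8.18 CPM against 2.99, 5.45 and 4.38 CPM, log2 difference 1.36, adjusted p = 0.000267). It was also higher without drug, at 33.8, 26.2 and 29.4 CPM against 23.2, 24.5 and 19.1 CPM in DMSO.

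INHBA rose from 111, 120 and 95.9 CPM to 154, 151 and 152 CPM in BCOR KO cells and fell from 232, 345 and 252 CPM to 184, 174 and 157 CPM in control cells, a difference of 1.17 ± 0.19 (adjusted p = 0.00256). The rise within BCOR KO cells (0.48, adjusted p = 0.0432) was not called without any one BCOR KO library (0.0503 to 0.209). NKD2, an antagonist of Wnt signalling, fell in control cells (-0.98) and not in BCOR KO cells (0.07, adjusted p = 0.891), and its difference of 1.05 (adjusted p = 0.035) did not pass without any one of the BCOR KO SGC0946 libraries, BCOR KO DMSO replicate 1 or 2, control DMSO replicate 2 (0.115) or control SGC0946 replicate 3 (0.178), nor when only the 12 libraries compared were fitted (0.114).

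On the lower side, SLPI had the smallest p of all 30 genes. It rose from 8.51, 7.02 and 8.66 CPM to 78.1, 68.6 and 79.3 CPM in control cells, by 3.21 on the log2 scale, and the change in BCOR KO cells was lower by 1.71 ± 0.15 (adjusted p = 1.78e-07). MNDA, a nuclear protein of myeloid cells, rose from 24.1, 11.4 and 23.5 CPM to 69.2, 69.7 and 70.0 CPM in control cells and from 17.6, 22.6 and 16.3 CPM to 29.4, 26.6 and 30.1 CPM in BCOR KO cells (difference -1.20 ± 0.24, adjusted p = 0.0151). The MNDA difference lost its call without BCOR KO DMSO replicate 2 (0.107) or SGC0946 replicate 2 (0.06) and with only the groups compared (0.212), and the rise within BCOR KO cells (0.60, adjusted p = 0.0436) held only without DMSO replicate 2. MIR124-1HG, the host transcript of miR-124-1, reached 96.3, 86.5 and 93.3 CPM in treated control cells and 109, 78.4 and 83.9 CPM in treated BCOR KO cells, but from 27.8, 23.1 and 21.4 CPM against 51.95, 59.3 and 50.03 CPM in DMSO (difference -1.19 ± 0.18, adjusted p = 0.000881). Its treated levels overlapped and its untreated levels did not.

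TFAP2A differed between the genotypes under both treatments. TFAP2A, a developmental transcription factor, held 0.71, 0.40 and 1.31 CPM in control cells in DMSO and 3.55, 2.82 and 4.03 CPM in SGC0946, and 37.1, 35.6 and 29.8 CPM and 31.1, 22.9 and 28.2 CPM in BCOR KO cells. The log2 difference of -2.35 ± 0.42 (adjusted p = 0.00537) therefore compares a change near the floor of the counts with one at far higher levels. DHRS3, a retinaldehyde reductase, rose in control cells (1.81) and not in BCOR KO cells (0.43, adjusted p = 0.162), with a difference of -1.38 ± 0.25 (adjusted p = 0.00667). Without control DMSO replicate 2 the differences were 1.62 for SOCS2 (adjusted p = 0.00363), 0.97 for HOXA9 (0.00261), 0.70 for MEF2C (0.00363), 0.90 for SATB1 (0.000122), 0.78 for BMI1 (0.0009), 1.27 for EFNA5 (0.0057) and 0.97 for INHBA (0.0057). On the lower side they were -1.63 for SLPI (1.67e-06), -0.95 for MNDA (0.0104), -1.16 for MIR124-1HG (0.00314), -2.07 for TFAP2A (0.04) and -1.40 for DHRS3 (0.0198), so these 12 kept their calls and NKD2 did not.

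**Figure D5:**
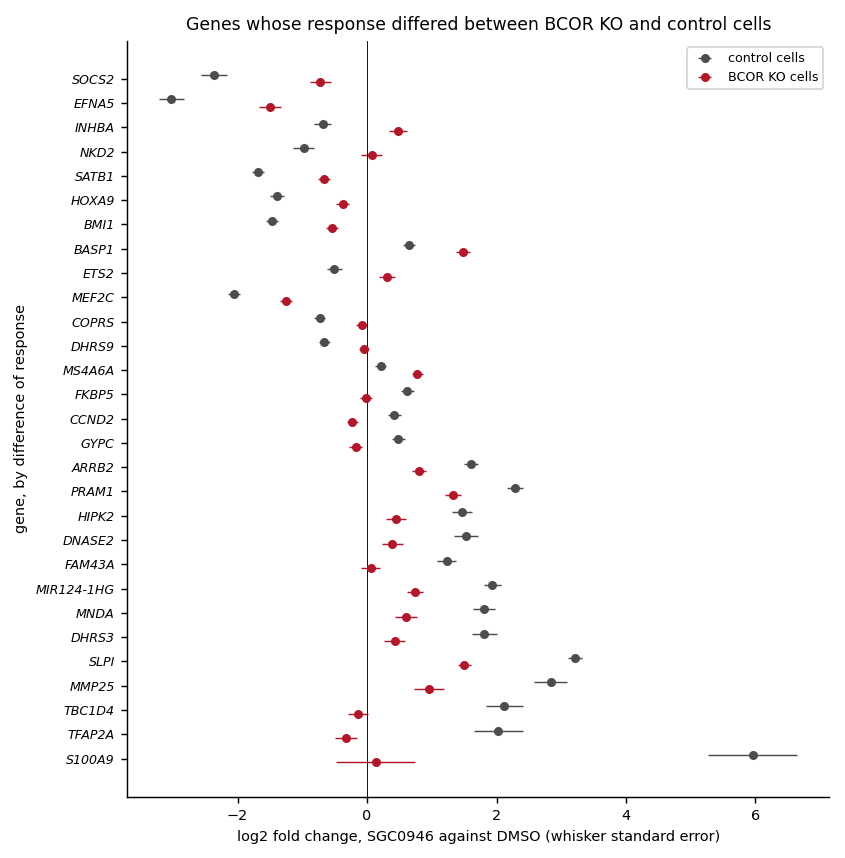
Log2 fold change of SGC0946 against DMSO with its standard error in control (grey) and BCOR KO cells (red) for 29 of the 30 genes whose responses differed, ordered by the difference. From SOCS2 to MS4A6A the BCOR KO change is the higher one and from FKBP5 down the lower one; S100A9 at the foot rests on 1 count in the 3 control DMSO libraries together.

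In PCGF1 KO cells the guide targets PCGF1, the partner of BCOR in PRC1.1, and their response to the same dose and time was compared in the same way. The difference passed in 2 genes (0.0165% of those tested), both higher in BCOR KO cells, by edgeR, and in 3 by DESeq2, while 452 genes had an unadjusted p under 0.05. CHI3L1 rose from 293, 309 and 357 CPM to 538, 579 and 608 CPM in PCGF1 KO cells, starting and ending above BCOR KO cells, and its change was higher in BCOR KO cells by 1.17 ± 0.13 on the log2 scale (adjusted p = 2.43e-05). MYBPH, a myosin binding protein gene, stayed at 54.7, 52.9 and 57.3 CPM in DMSO and 56.1, 57.1 and 56.8 CPM in SGC0946 in PCGF1 KO cells, and rose from 18.1, 19.0 and 17.9 CPM to 35.7, 32.0 and 39.6 CPM in BCOR KO cells (difference 0.92 ± 0.15, adjusted p = 0.00696; 0.0541 without BCOR KO SGC0946 replicate 3). For the MLL targets the differences were -0.40 ± 0.27 for MEIS1, -0.03 ± 0.13 for MEF2C and 0.09 ± 0.15 for HOXA9 (SE), and none passed the test, which does not show that the genotypes respond alike.

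With both genotypes in SGC0946, 861 genes differed between BCOR KO and control cells (7.09%), 461 higher (3.80%) and 400 lower (3.29%) in BCOR KO cells. Late granulocyte genes (8 of 13) and monocyte and macrophage genes (8 of 25) were among the lower ones with none higher, and of the MLL fusion targets 13 of 33 were higher and 1 was lower. The filter on low counts favours this direction in the late granulocyte list. Of the BCOR KO and control groups in DMSO and SGC0946, S100A8 and ALOX5 averaged 2 CPM or more in treated control cells alone (5.84 and 2.17 CPM). The summed levels were lower in BCOR KO cells without drug as well. In DMSO the late granulocyte list summed to 382 to 393 CPM against 470 to 628 CPM in control cells. The monocyte and macrophage list summed to 1270 to 1360 CPM against 1540 to 1680 CPM. Single members went both ways, SLPI averaging 15.6 and 8.06 CPM. The difference of response was called, as lower, in 3 and 1 members of these lists. MYO6 had the smallest p among the higher genes of the rule after FGFR1, with a difference that was also seen without drug. It measured 38.83, 42.02 and 33.7 CPM in BCOR KO against 2.80, 3.76 and 2.10 CPM in control cells in SGC0946 (log2 difference 3.72 ± 0.20, adjusted p = 1.03e-13), and 77.1, 86.9 and 77.1 CPM against 5.85, 9.62 and 6.04 CPM in DMSO. NR2F1 (log2 difference 4.84), the growth factor receptor FGFR1 (3.54), TFAP2A and the growth factor PDGFA were also named by the rule on this side. NR2F1 was at 0.19, 0.56 and 1.40 CPM in control cells in SGC0946, about the floor of the counts. Without drug these genes differed as well, NR2F1 averaging 57.4 CPM in BCOR KO and 0.81 CPM in control cells in DMSO, and FGFR1 41.97 and 1.399 CPM.

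On the lower side, the largest log2 differences among the genes of the rule were those of NAV3 (-3.32), PLCB4 (-3.11) and CLEC12A. CLEC12A, a lectin receptor of myeloid cells, measured 5.84, 2.93 and 4.38 CPM in BCOR KO and 37.8, 37.96 and 33.6 CPM in control cells in SGC0946 (log2 difference -3.06, adjusted p = 9.82e-11). Its means in DMSO were 1.12 and 3.79 CPM. SORL1 measured 16.5, 19.7 and 16.4 CPM against 106, 109 and 108 CPM (-2.62, adjusted p = 9.34e-14), after 5.99, 4.12 and 6.32 CPM against 31.0, 32.1 and 37.9 CPM in DMSO. SORL1 thus rose by nearly the same log2 amount in both genotypes (1.69 and 1.68) from different levels, and CYBB, lower by 2.57 in BCOR KO cells in SGC0946 (adjusted p = 5.87e-15), rose by 2.25 and 2.69 (difference -0.44, adjusted p = 0.56). SERPINB10 and SESN3 were also named by the rule on this side. TFAP2A was also called for a difference of response.

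BCOR KO cells were also given the Menin inhibitor VTP50469 (500 nM, 48 h), a different dose and time, so the levels are set side by side only. MEIS1 averaged 4.19 CPM, MEF2C 52.9 CPM, EFNA5 1.75 CPM, HOXA9 61.3 CPM and SOCS2 9.54 CPM in VTP50469, with 11.0, 94.7, 16.1, 66.0 and 16.7 CPM in SGC0946 and 29.8, 225.7, 45.5, 85.8 and 27.6 CPM in DMSO. CYBB averaged 77.0 CPM, CHI3L1 329 CPM and MPO 50.1 CPM in VTP50469, where SGC0946 gave 40.96, 242 and 38.6 CPM.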

How the data were processed

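The values are from 3′ RNA-seq of 27 MOLM13 libraries, 3 for each of 9 combinations of genotype and treatment. Per the labels and the study's methods, reads were trimmed with bbmap and aligned to GRCh38 with STAR, whose gene counting mode made the table. The authors deposited whole-number counts per Ensembl gene, not normalized. The gene annotation and the use of strand are not given in the sources used here, so overlapping and antisense genes and pseudogenes are uncertain. Rows that name no gene (36.3% to 48.6% of reads) were left out. Totals were 4283204 to 6330489 counts a library, which limits genes near 2 CPM most. The 12140 of 63152 genes that reached 2 CPM in 2 or more libraries, the study's own limit, were tested in 1 model over all 27 libraries with edgeR 4.0.16 (TMM scaling, quasi-likelihood F-test, R 4.3.3); a standard error is the log2 fold change divided by the square root of F. P-values were adjusted by the Benjamini–Hochberg method over all genes tested and called under 0.05. Differences of response were interaction contrasts. GENCODE v44 gave symbols for 97.5% of tested genes, coordinates and start sites.

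The study describes 3 biological replicates; the sources used here do not say how their cultures were separated, and p-values measure the spread between these libraries. No 2 libraries of a group were the same within sampling noise in BCOR KO and control cells in DMSO or SGC0946, the only pairs checked. The members and gene lists were chosen with earlier results of these data known. Genes were named by a rule: BCOR, PCGF1 and genes the study names; the 12 most raised and 12 most lowered called genes in BCOR KO cells with a mean of at least 10 CPM and no overlap between groups; the 6 highest and 6 lowest called genes of each difference of response and of the comparison in SGC0946, with the same minimum mean; and up to 4 called members of each list. Some genes of the rule are not reported here. Other genes were chosen after their values were seen. Alternatives were DESeq2 1.42.0, 2 other scalings, no filter, only the groups compared, a replicate block, the limits of the study's methods and leaving out each library. The steps were tested on simulated data.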

Additional observations from a re-analysis of the deposited data

Results flagged for a closer look

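The response to SGC0946 differed between BCOR KO and control cells, by a test of the difference itself, in 30 genes. Among the largest differences named by the rule, the log2 change was higher in BCOR KO cells by 1.65 for SOCS2, 1.52 for EFNA5, 1.17 for INHBA, 1.05 for NKD2, 1.02 for SATB1 and 1.02 for HOXA9. It was lower in BCOR KO cells for TFAP2A (-2.35), SLPI (-1.71), DHRS3 (-1.38), MNDA (-1.20) and MIR124-1HG (-1.19). TFAP2A was near the floor of the counts in control cells in DMSO. Of 18 alternatives, the call was lost in 8 for NKD2, in 3 for MNDA and in 1 for EFNA5. Between BCOR KO and PCGF1 KO cells the response differed in 2 genes, CHI3L1 (1.17) and MYBPH (0.92).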

How the results depend on the processing

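With scaling by DESeq2's size factors, scaling by library size alone, or DESeq2 as the test, each of the 5 counts of genes stayed within 1.5 times of its value, and no named gene changed direction in any alternative. Leaving out 1 library gave 285 to 367 called genes for the BCOR KO response, 1044 to 1686 for the control response, 21 to 32 and 1 to 3 for the difference from control and from PCGF1 KO cells, and 616 to 653 for the comparison in SGC0946; these fits had fewer samples. Without a filter, the difference of response was called in 139 genes against control and in 51 against PCGF1 KO cells, and the cause was not tested. Fitting only the groups compared gave 505 genes for the control response and 16 for the difference from control. The difference from PCGF1 KO cells was called in 4 genes without control DMSO replicate 2, a library chosen after seeing the data, and the BCOR KO response in 713. Among named genes the BCOR KO response lost 96 calls over all omissions of a library and 16 over the other settings, and the difference from control lost 83 and 19. Replicate numbers were not taken as pairs, because the study's methods use no block. The deviations of same-numbered DMSO and SGC0946 libraries of BCOR KO cells correlated weakly, at 0.049, 0.106 and 0.113, but each correlated best with its own number. Sample numbers in the column names follow the replicate order, so an effect shared within a replicate was not removed from the p-values given. With a replicate block 702 genes were called for the BCOR KO response, 1932 for the control response and 38 for the difference from control, and ITGAM was called (adjusted p = 0.0451). At this depth, genes under 2 CPM were not tested.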

Other observations

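In the late granulocyte list, S100A9 held 12 counts over the 3 BCOR KO DMSO libraries, 1 over the control DMSO libraries and 84 over the control SGC0946 libraries, and its difference of response (adjusted p = 0.00637) was lost without BCOR KO DMSO replicate 1 (0.0652). MMP25, a membrane-bound metalloproteinase of neutrophils, averaged 3.92 and 7.65 CPM in BCOR KO cells in DMSO and SGC0946 and 1.42 and 10.4 CPM in control cells (difference -1.88, adjusted p = 0.00912; 0.0526 without control DMSO replicate 2). CCND2, a D cyclin, averaged 130 and 112 CPM in BCOR KO cells and 24.8 and 33.3 CPM in control cells, and its response was lower in BCOR KO cells by 0.65 on the log2 scale (adjusted p = 0.0136; 0.0557 without BCOR KO SGC0946 replicate 1, 0.0505 without control DMSO replicate 1 and 0.195 with only the groups compared). BASP1, a membrane-associated signalling protein, rose in both genotypes, from 31.3 to 87.2 CPM in BCOR KO cells and from 181 to 284 CPM in control cells (difference 0.83, adjusted p = 0.00461; 0.114 with only the groups compared). These genes were chosen after their values were seen.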
